A study of Mus musculus with 8 samples.

Results

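In whole kidneys of SIK mutant mice and their controls, 10 transcripts typical of brown and white fat cells were examined, out of 55401 genes in each of 8 kidneys. They are *Adipoq*, *Cfd*, *Plin1*, *Cidec* and *Fabp4*, which fat cells of both kinds express, *Retn* and *Lep*, typical of white fat, and *Ucp1*, *Cidea* and *Elovl3*, typical of brown fat. All 10 were found by gene identifier in the GENCODE M21 mouse annotation (GRCm38). They were chosen by their known role as fat markers and by their counts in these same 8 kidneys, which had already been examined, so their values are given as a description. Where a fit over all genes called a member, it is counted beside the share of all genes called and supports nothing.

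RNA from the whole kidney was sequenced from 4 controls and 4 mutants. The labels give the controls as SIK1f/f, SIK2f/f and SIK3f/f mice, that is, with loxP sites flanking both alleles of all 3 salt-inducible kinase genes, and the mutants as the same genotype with Six2-Cre. The study's text instead describes its kidney mutants as carrying 1 intact *Sik1* allele, since mice with Six2-Cre and all 6 floxed alleles did not survive, so the labelled genotype is uncertain. Its methods describe the controls as Cre-negative littermates. Age and sex of each animal are not given in the sources used here. Six2-Cre acts in nephron progenitors and the cells that descend from them, so the recombinase is not active in stromal or blood cells, and fat is not among the targeted tissues. Nothing in the labels says how the kidneys were trimmed.

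Fat cells store triglyceride in droplets coated by perilipins and by proteins of the CIDE family, and release it when the lipases on those droplets are activated. White fat cells hold a single large droplet and secrete hormones such as leptin and adiponectin. Brown fat cells hold many small droplets and burn fatty acids for heat through the uncoupling protein UCP1. In the mouse, fat lies in the renal sinus at the hilum and around the outside of the kidney capsule, and perirenal fat can hold brown as well as white cells, so either kind can remain on a dissected kidney.

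Promoter sequences of 3 transcripts are shown, 1 for each class of fat transcript. Each is the 250 bases before the RefSeq start site on the plus strand of GRCm38.p6, 5′ to 3′. *Adipoq* represents the shared transcripts (chr16:23146286-23146535), *Lep* for the white ones (chr6:29059971-29060220) and *Ucp1* for the brown ones (chr8:83290098-83290347). Capitals mark a match, on either strand, to 1 of 5 motifs. The first was the core promoter element TATAAA. The next was the pentamer CCAAT, which is bound by the factor NF-Y. The third, AGGTCA, is the core site of nuclear receptors such as PPARγ, which drives fat cell genes. The fourth, TGACG, is the core of the cAMP response element. The last was the palindrome of the C/EBP factors, TTGCGCAA.
Adipoq: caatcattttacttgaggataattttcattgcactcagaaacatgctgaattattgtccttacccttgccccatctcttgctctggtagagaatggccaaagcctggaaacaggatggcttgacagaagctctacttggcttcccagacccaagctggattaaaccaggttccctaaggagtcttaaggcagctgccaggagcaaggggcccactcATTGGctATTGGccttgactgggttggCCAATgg
Lep: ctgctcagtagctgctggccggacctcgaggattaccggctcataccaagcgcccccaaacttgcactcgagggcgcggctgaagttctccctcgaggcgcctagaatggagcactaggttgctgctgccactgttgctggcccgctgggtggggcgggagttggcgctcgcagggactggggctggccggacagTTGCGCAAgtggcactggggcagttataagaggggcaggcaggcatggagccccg
Ucp1: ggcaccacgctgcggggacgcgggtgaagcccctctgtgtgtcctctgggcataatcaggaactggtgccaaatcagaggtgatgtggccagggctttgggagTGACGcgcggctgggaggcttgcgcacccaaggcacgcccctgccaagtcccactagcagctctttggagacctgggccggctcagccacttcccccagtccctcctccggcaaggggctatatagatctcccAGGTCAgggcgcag

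The *Adipoq* window held 3 CCAAT matches, 1 on the gene's strand and 2 on the other, and 33.8% of all 32851 promoter windows held at least 1. The *Lep* window held 1 C/EBP palindrome, a motif found in 0.164% of windows, and the *Ucp1* window held 1 TGACG and 1 AGGTCA, found in 17.8% and 14.0% of windows. No motif was shared by any pair of these 3 windows. The matches describe the letters of the windows and do not show binding.

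Depth was even, at 10179648 to 10925100 counts per kidney, and 14326 genes passed the filter on low counts and were tested. Levels per kidney are in CPM (counts scaled to library size) after TMM scaling, on which 3 counts amount to 0.263 to 0.304 CPM, and levels of different genes are compared only in TPM, which divide by transcript length. The targeted gene *Sik3* was lower in all 4 mutants than in any control (33.7 to 43.1 against 58.6 to 66.5 CPM). *Sik2* was lower on average, with overlap (4.50 to 9.30 against 7.97 to 9.95 CPM). *Sik1* was not lower in mutants (43.4 to 54.1 against 36.8 to 43.1 CPM). All 9 kidney markers were detected, with summed levels of 19677 to 41562 CPM in controls and 23761 to 31715 CPM in mutants. The largest part was *Kap*, at 29701, 23937, 9015 and 9409 CPM in controls 1 to 4 and 12964 to 21110 CPM in mutants. Reads of 4 genes of the Y chromosome (*Uty*, *Kdm5d*, *Ddx3y*, *Eif2s3y*) were present in controls 1 and 2 and in all 4 mutants, and were at 0 to 0.0875 CPM in controls 3 and 4. The mutants thus had no counterpart to controls 3 and 4 in this respect.

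Together the 10 transcripts took between 0.00201% of all counts (95% Wilson interval 0.00177 to 0.00230), in control 1, and 0.0346% (0.0335 to 0.0357), in control 3. The 4 mutants lay between 0.0208% and 0.0305%, control 4 was at 0.00767% and control 2 at 0.00296%. Control 1 had no read of 9 of the 10 transcripts, control 2 none of 3, control 4 none of 2 and mutant 2 none of 1, while the other 4 kidneys had reads of all 10. The kidneys with the most and the least fat RNA were thus both controls. These intervals cover counting error only, and nothing states that the kidneys came from separate litters. In bulk tissue, fewer fat cells and less fat RNA per cell cannot be told apart.

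**Figure D1:**
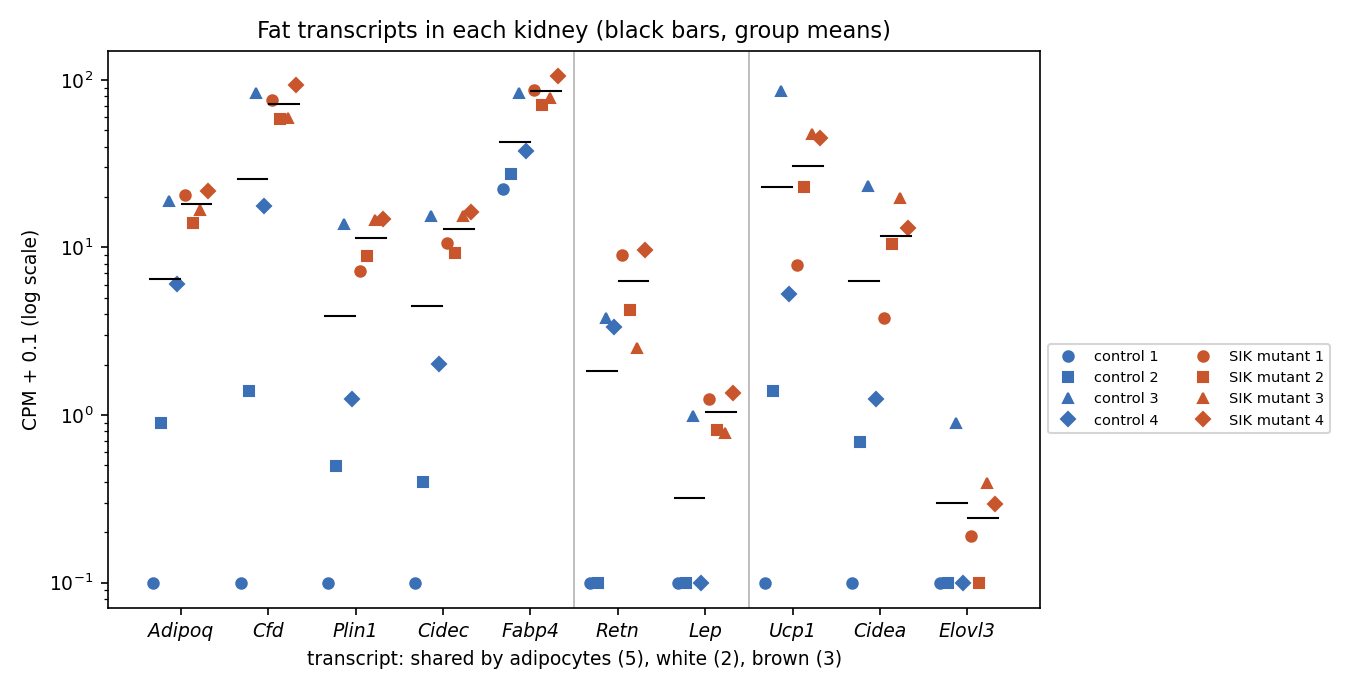
Level of each of the 10 fat transcripts (x axis) in each kidney (y axis, CPM plus 0.1 on a log scale), with controls in blue, SIK mutants in orange and black bars at the group means. Controls 1 and 2 lie at or near the bottom for all but Fabp4, while control 3 lies among the mutants for the shared transcripts and above them for the 3 brown transcripts.

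*Adipoq* (chromosome 16, 23146536 to 23158028) encodes adiponectin, a hormone made almost only by fat cells. It was at 0, 0.790, 18.8 and 5.95 CPM in controls 1 to 4 and at 20.5, 13.8, 16.7 and 21.6 CPM in mutants 1 to 4. The 4 mutants were close to each other and control 3 fell among them, so the groups overlapped, with 6.37 ± 8.67 CPM in controls and 18.1 ± 3.56 CPM in mutants (SD, n = 4 each). The log2 fold change of mutants against controls was 1.48 (SE 0.855).

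*Cfd* (chromosome 10, 79890853 to 79892655) encodes adipsin, the complement factor D secreted by fat cells. It was at 0, 1.28, 83.2 and 17.5 CPM in the controls and at 76.0, 58.5, 59.2 and 93.4 CPM in the mutants, in the same kidney order. Control 3 again lay inside the range of the mutants and the log2 fold change was 1.48 (SE 1.05). For each *Adipoq* read there were 2.94 to 4.44 *Cfd* reads in the 6 kidneys with at least 10 *Adipoq* counts (control 3, control 4 and the mutants), a 1.51-fold span, so these 2 secreted products kept nearly the same proportion.

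*Plin1* and *Cidec* encode coat proteins of the lipid droplet. *Plin1* (chromosome 7, 79720218 to 79732903) was at 0, 0.395, 13.7 and 1.14 CPM in the controls and 7.15, 8.83, 14.5 and 14.7 CPM in the mutants. *Cidec* (chromosome 6, 113424634 to 113435760) was at 0, 0.296, 15.3 and 1.93 CPM in the controls and 10.6, 9.19, 15.4 and 16.2 CPM in the mutants. For both, control 3 lay far above the other controls and among the mutants, and control 4 was below every mutant. Their log2 fold changes were 1.53 (SE 0.966) and 1.52 (SE 0.948).

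*Fabp4* (chromosome 3, 10204088 to 10208576), a carrier of fatty acids in fat cells, is also expressed by the endothelium of small vessels, and it was the only member with reads in control 1. It was at 22.3, 27.2, 83.7 and 37.3 CPM in the controls and at 87.2, 70.5, 78.2 and 105.3 CPM in the mutants. Control 3 fell among the mutants and the other 3 controls lay below it. The log2 fold change was 0.997 (SE 0.367), the smallest of the 5 shared transcripts, on a level in controls 1 and 2 that the other 4 lacked.

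Of the white transcripts, *Retn* (chromosome 8, 3655770 to 3660110) encodes resistin, which in the mouse is secreted by white fat cells. It was at 0, 0, 3.70 and 3.24 CPM in the controls and at 8.91, 4.10, 2.42 and 9.53 CPM in the mutants. Mutants 1 and 4 were highest, mutant 3 was below controls 3 and 4, and the log2 fold change was 1.80 (SE 0.905). Transcripts of 5 blood genes, hemoglobins and *Alas2*, were also highest in mutants 1 and 4, with 2967 and 2594 CPM in sum against 702 to 1233 CPM in the other 6 kidneys, and their part in the *Retn* values was not tested.

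*Lep* (chromosome 6, 29060220 to 29073877) encodes leptin, the hormone that reports fat stores to the brain. It did not pass the filter on low counts. It had 10 counts in control 3 (0.881 CPM) and 0 in the other controls, and 13, 8, 7 and 13 counts in mutants 1 to 4, which is 1.15, 0.713, 0.678 and 1.25 CPM. Control 3 lay inside the range of the mutants, and the limit of 3 counts that a count of 0 allows was below the lowest mutant, at 7 counts.

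Of the brown transcripts, *Ucp1* (chromosome 8, 83290352 to 83298452) encodes the uncoupling protein that gives brown fat its heat. It was at 0, 1.28, 85.2 and 5.17 CPM in the controls and at 7.77, 22.9, 47.3 and 44.6 CPM in the mutants. The highest kidney was control 3, above all 4 mutants, and the mutants spanned a wider range than they did for *Adipoq*. The groups, at 22.9 ± 41.6 and 30.6 ± 18.8 CPM (SD, n = 4 each), overlapped almost fully, and the log2 fold change was 0.40 (SE 1.20).

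*Cidea*, the CIDE protein of the small droplets of brown fat, was at 0, 0.593, 23.2 and 1.14 CPM in the controls and at 3.71, 10.3, 19.7 and 12.9 CPM in the mutants. Control 3 was again above all 4 mutants, and the log2 fold change was 0.87 (SE 1.10). *Elovl3* (chromosome 19, 46131897 to 46135694), an elongase of very long fatty acids in brown fat, had 9 counts in control 3, 1, 3 and 2 counts in mutants 1, 3 and 4, and 0 in the other kidneys. It did not pass the filter, and with so few counts only control 3 was clearly above the limit of 3 counts.

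Per length of transcript, in TPM, *Fabp4* and *Cfd* were the most abundant members in mutants, at 125.6 ± 14.5 and 113.5 ± 19.98 TPM (SD, n = 4). These means lay within each other's spread, but *Fabp4* was above *Cfd* in each mutant. In mutants 1 to 4 it was at 127.85, 111.1, 118.7 and 144.7 TPM, against 123.9, 97.9, 95.7 and 136.5 TPM for *Cfd*. Next came *Ucp1* at 23.2 ± 13.8, *Adipoq* at 18.2 ± 2.94 and *Cidea* at 14.0 ± 8.05 TPM, and each neighbour in this order lay within 1 SD of the next. *Cidec* at 10.5 ± 2.78, *Retn* at 10.04 ± 5.37 TPM and *Plin1* at 6.02 ± 2.35 TPM likewise did not differ from their neighbours beyond their spread, and *Lep* and *Elovl3* were at 0.338 ± 0.0900 and 0.107 ± 0.0998 TPM. In controls the SD was larger than the mean for all members but *Fabp4* (61.1 ± 46.9 TPM), so the group means gave no order there. These SDs are between kidneys and do not decide the order of genes within a kidney. In controls 1 to 4 *Fabp4* was at 26.8, 33.55, 129.1 and 54.8 TPM and *Adipoq* at 0, 0.7, 19.05 and 6.02 TPM.

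The 10 transcripts moved together in that controls 1 and 2 were low for all of them, but they did not keep the same order among the other 6 kidneys. *Adipoq* and *Fabp4* had the same order, mutant 4 highest, then mutant 1, control 3, mutant 3, mutant 2 and control 4. *Ucp1* and *Cidea* shared another, control 3 highest, then mutants 3, 4, 2 and 1 and control 4. Mutant 1 was thus next to the top for adiponectin and next to the bottom of the 6 for *Ucp1*.

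Over these 6 kidneys Spearman's rank correlation with *Adipoq* was 1 for *Fabp4*, 0.943 for *Cfd* and *Lep*, 0.771 for *Cidec*, 0.714 for *Retn*, 0.6 for *Plin1* and 0.371 for *Ucp1* and *Cidea*. Pearson's r on log2 CPM was 0.914 to 0.989 for the other 4 shared transcripts, and 0.622 and 0.731 for *Ucp1* and *Cidea*. Between *Ucp1* and *Cidea* Spearman's correlation was 1, and between *Ucp1* and *Retn* it was −0.14. The transcripts were measured in the same libraries, the kidneys are few, and the values are given without a p. No coefficient over all 8 kidneys is given here for the members, since controls 1 and 2 lie apart from the rest.

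**Figure D2:**
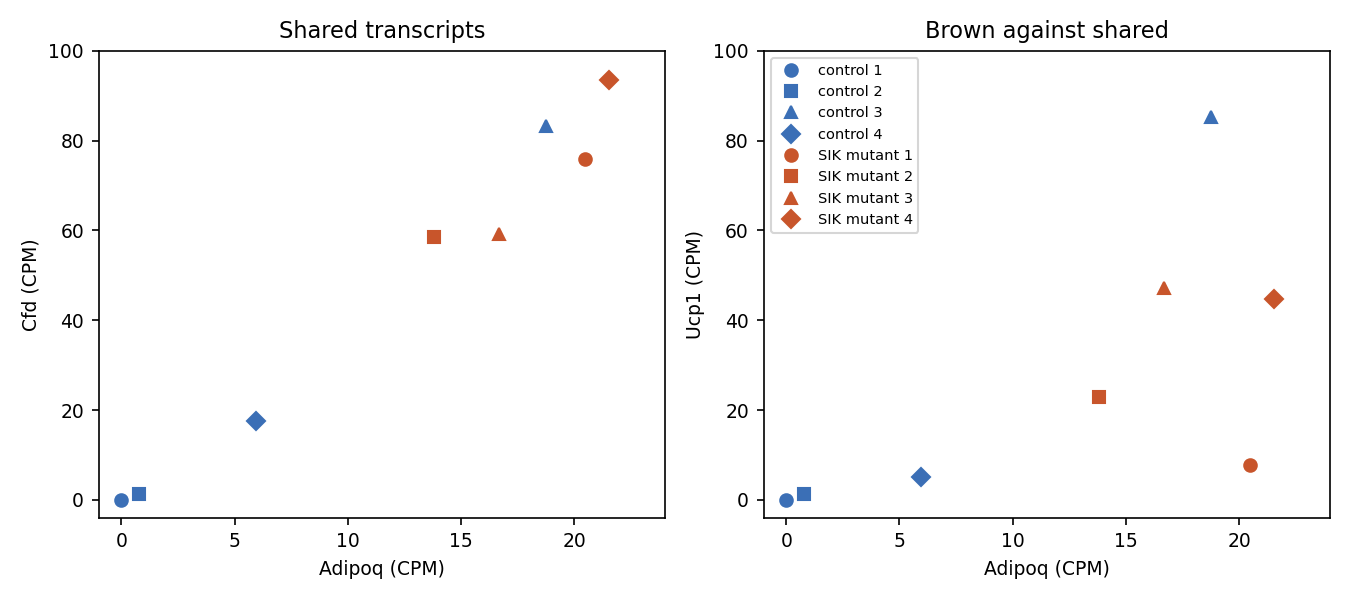
Cfd (left, y axis) and Ucp1 (right, y axis) against Adipoq (x axes), all in CPM on linear scales, with a point per kidney and controls in blue, SIK mutants in orange. Cfd rises with Adipoq in a narrow band (2.94 to 4.44 reads per Adipoq read), whereas kidneys with similar Adipoq, control 3 at 18.8 and mutant 1 at 20.5 CPM, hold 85.2 and 7.77 CPM of Ucp1.

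The proportion of *Ucp1* to *Adipoq* therefore differed between kidneys that held similar amounts of shared fat RNA. Whether the mix of brown and white cells differed was not tested. The ratio of *Ucp1* to *Adipoq* in TPM ran from 0.285 in mutant 1 to 3.45 in control 3, a 12.1-fold span over 6 kidneys, with 0.658 in control 4 and 1.26, 2.16 and 1.57 in mutants 2 to 4. As a share of the reads of both genes, *Ucp1* took 27.5% in mutant 1 (95% exact binomial interval 22.7 to 32.7) and 82.0% in control 3 (79.7 to 84.1). The shares were 62.4% (57.5 to 67.1), 73.9% (70.4 to 77.3) and 67.4% (63.8 to 70.9) in mutants 2 to 4, 46.5% (37.6 to 55.5) in control 4 and 61.9% (38.4 to 81.9) in control 2, where it rests on 21 reads. The intervals of mutant 1, control 4 and control 3 did not overlap each other, so the differences among these 3 kidneys exceeded counting error.

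**Figure D3:**
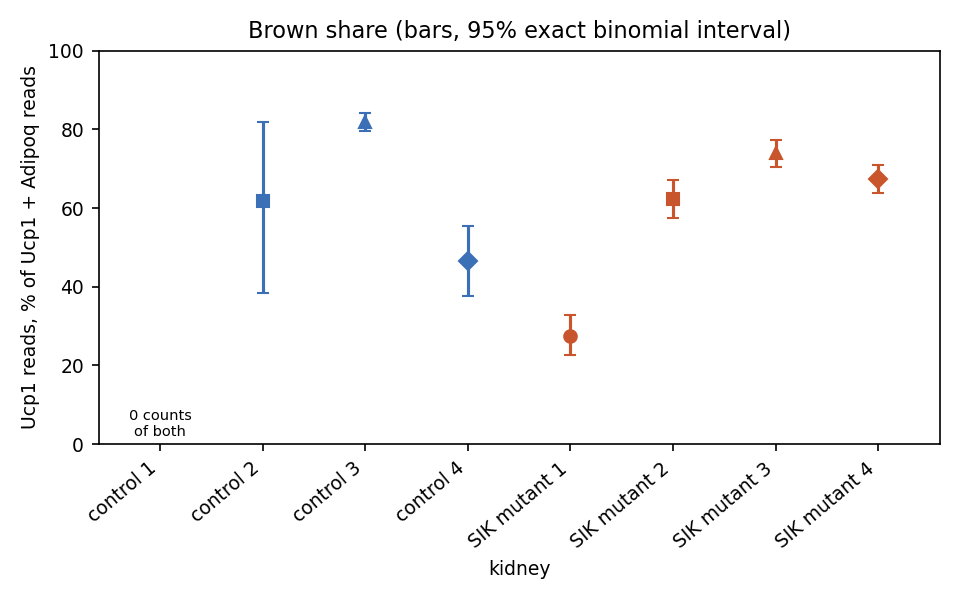
Reads of Ucp1 as a percentage of Ucp1 plus Adipoq reads (y axis) in each kidney (x axis), with 95% exact binomial intervals that cover counting error only, controls in blue and SIK mutants in orange. Control 3 is highest at 82.0% and mutant 1 lowest at 27.5%, and control 1 had no read of either gene.

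By group, the summed TPM of the 3 brown transcripts over that of the 5 shared ones was 0.103 ± 0.141 in controls and 0.139 ± 0.0834 in mutants (SD, n = 4 each). The single values were 0, 0.0406, 0.311 and 0.0587 in the controls and 0.0374, 0.133, 0.242 and 0.142 in the mutants, so the means differed by less than the spread and the groups overlapped. In controls 1 and 2 *Fabp4*, which endothelium also expresses, made up 26.76 of 26.76 and 33.55 of 36.7 shared TPM. The ratios of these 2 kidneys, and the control mean, are thus no measure of brown against shared fat RNA. By reads of *Ucp1* and *Adipoq*, control 2 had a *Ucp1* share of 61.9%. In the other 6 kidneys the droplet proteins gave a picture like that of the ratios. There were 0.350 *Cidea* reads per *Cidec* read in mutant 1, 0.591 in control 4, 0.798, 1.13 and 1.28 in mutants 4, 2 and 3, and 1.52 in control 3. *Retn* went the other way in part, with 0.145 reads per *Adipoq* read in mutant 3 and 0.197 in control 3. It was at 0.297 in mutant 2, 0.435 in mutant 1, 0.442 in mutant 4 and 0.544 in control 4. Mutants 1 and 4 were thus alike for *Retn*, though their *Ucp1* shares were 27.5% and 67.4%. Every kidney with *Adipoq* reads also held *Ucp1* and *Cidea* reads, and all of these but control 2 held *Retn* reads. Of the 6 kidneys, mutant 1 and control 4 were lowest by both the *Ucp1* and the *Cidea* measure.

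In the comparison of 4 mutants with 4 controls, the log2 fold change was above 0 for all 8 members tested, with a median of 1.48 against −0.0038 over all genes tested. By edgeR's quasi-likelihood test with Benjamini-Hochberg adjustment 0 members and 0 of 14326 genes (0%) had an adjusted p under 0.05. An unadjusted p under 0.05 was found for 911 genes (6.36%), among them 1 member, *Fabp4*, and the DESeq2 Wald test called 71 genes and 0 members. The groups overlapped for all 10 members, where 4.03% of genes tested did not overlap and 1.65% did so with the mutants higher. Control 3 carried much of this: without it the log2 fold changes were 2.95 for *Adipoq*, 3.47 for *Cfd*, 4.37 for *Plin1*, 4.02 for *Cidec*, 4.26 for *Cidea*, 3.77 for *Ucp1*, 2.45 for *Retn* and 1.56 for *Fabp4*. That of *Ucp1* was −0.0041 without control 1 and 0.02 without control 2.

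With controls 3 and 4 left out, all 6 kidneys had Y-linked reads, and the controls that remained were those with the least fat RNA. The log2 fold changes were 5.47 for *Adipoq* (SE 0.550), 6.77 for *Cfd* (SE 0.546), 5.74 for *Plin1* (SE 0.680), 1.79 for *Fabp4* (SE 0.180), 5.54 for *Ucp1* (SE 1.06) and 5.23 for *Cidea* (SE 0.963). All but that of *Fabp4* rested on few control reads, none of them in control 1. There were 8 reads for *Adipoq*, 13 for *Cfd*, 4 for *Plin1*, 13 for *Ucp1* and 6 for *Cidea*. *Cidec* rested on 3 reads in the controls, and its ratio of pooled counts was 84.7 (95% exact interval 28.8 to 411.8, counting error only). The like intervals were 21.6 to 205.5 for *Plin1* and 17.4 to 104.3 for *Cidea*. *Retn* and *Lep* were at 0 in both controls, so a floor of 3 counts per library (0.300 CPM) was used for them. The means of the mutants were 20.8-fold and 3.15-fold this floor, while the lowest mutant was at 2.42 and 0.678 CPM. In this fit 21 of 14719 genes (0.143%) had an edgeR adjusted p under 0.05, 17 of them higher in mutants (0.115%), and 5 of those 17 were members: *Adipoq*, *Cfd*, *Plin1*, *Cidec* and *Fabp4*. With all 8 kidneys and the Y-linked reads as a covariate, 15 genes were called, all higher in mutants (0.105%), and 3 of them were members, *Adipoq*, *Cfd* and *Retn*. Since the members were chosen with these values known, both counts are a description. No mutant lacked Y-linked reads, so genotype and the Y-linked difference were separated only through controls 1 and 2.

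Of 25 further genes common to fat cells, 24 were tested, with 19 log2 fold changes above 0 and a median of 0.59, and 0 passed the adjusted test (2 higher and 0 lower at an unadjusted p under 0.05). The largest log2 fold changes were those of 4 genes. *Adig* (adipogenin) had 1.53 (SE 0.830), *Mrap*, an accessory protein of the melanocortin receptors, 1.38 (SE 0.759), and *Plin4*, another perilipin, 1.02 (SE 0.565). *Fasn*, the fatty acid synthase, had 1.01 (SE 0.421). Not every gene of fat cells moved so: *Lgals12*, a galectin of the lipid droplet, was at 0, 0.395, 3.52 and 4.47 CPM in the controls and at 1.68, 2.14, 1.65 and 1.92 CPM in the mutants, with a log2 fold change of −0.21 (SE 0.808). It was named after its values were seen. Of the 3 most abundant genes of the list, *Lpl*, the lipoprotein lipase, was highest at 1619 CPM in control 1, which had almost no fat transcript, and lowest at 421.9 CPM in control 4. *Gpd1* and *Scd1* had log2 fold changes of −0.02 (SE 0.140) and 0.04 (SE 0.662). *Scd1*, a fatty acid desaturase, was at 86.4, 180.004, 1047 and 991.9 CPM in the controls and at 591.0, 733.1, 616.1 and 433.4 CPM in the mutants, low in controls 1 and 2 like the members but highest in controls 3 and 4. It was the only gene of the list called with the Y-linked covariate. All 3 had reads in control 1, where *Adipoq* had none.

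Without controls 3 and 4 the median of this list was 1.47 over 25 genes tested, against 0.01 over all genes. The median was as large for urothelium, 1.498 over 6 genes, and for mesothelium, 1.67 over 3. In that fit 2 of the 25 fat genes were called higher by edgeR's adjusted test, beside 0.115% of all genes. They were *Plin4* with a log2 fold change of 2.61 (adjusted p = 0.0118) and *Thrsp*, a regulator of fat synthesis, with 3.93 (adjusted p = 0.0454). The only controls in that fit were those with the least fat RNA, and the list was chosen with earlier results known. These calls are therefore a description, as for the members.

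A list of 15 further brown genes had 9 tested, 4 above and 5 below 0, with a median of −0.06 and 0 called (0 higher and 1 lower at an unadjusted p under 0.05). Within it, *Cox8b*, a cytochrome oxidase subunit of brown fat and muscle, was at 0, 0.494, 16.1 and 3.06 CPM in the controls and 3.27, 7.76, 14.1 and 8.76 CPM in the mutants. That is the order of *Ucp1* and *Cidea* in all 8 kidneys. *Otop1* and *Kcnk3*, a proton and a potassium channel of brown fat, had log2 fold changes of 1.41 (SE 1.11) and 0.83 (SE 0.696). The most abundant genes, *Fabp3* and *Cox7a1*, are shared with other oxidative tissue and were at 56.5 to 75.1 and 9.89 to 17.1 CPM in controls, with 65.1 and 10.86 CPM in control 1. *Cox7a1* had a log2 fold change of −0.48 (SE 0.203). *Zic1* and *Lhx8*, transcription factors of the classic interscapular brown fat, had 0 counts in every kidney.

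The 9 further white genes, 7 of them tested, had a median log2 fold change of 0.03 and 0 called, also none at an unadjusted p under 0.05. *Agt*, angiotensinogen, and *Tcf21*, a factor of stromal cells, were the most abundant, and the kidney itself makes both, so that their reads stood at 89.2 and 13.9 CPM in control 1. *Hoxc8* and *Hoxc9*, position genes of hind body fat, had 0.23 (SE 0.215) and −0.16 (SE 0.191), and *Sncg* had 0.02 (SE 0.409). The groups did not overlap for 1 of the 9, *Nnat*, beside 4.03% of all genes tested. *Nnat* itself was not tested and lay between 0 and 0.203 CPM in controls and between 0.291 and 2.12 CPM in mutants. Its lowest mutant, mutant 3, had 3 counts.

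Of 6 markers of beige cells, the brown-like cells within white fat, 2 were tested and 0 called. *Tmem26* had a log2 fold change of −0.82 (SE 0.361) and *Slc27a1* of −0.11 (SE 0.225). *Cited1* was at 2.11 and 2.36 CPM in controls 3 and 4 and between 0 and 0.265 CPM in the other 6 kidneys, which does not follow the fat transcripts, and *Shox2* had 0 counts in every kidney. Among 9 genes of the stroma of fat, 8 were tested with a median of 0.07 and 0 called. Their largest log2 fold changes were 1.01 for *Pi16* (SE 0.413), 0.69 for *Dcn* (SE 0.319), −0.27 for *Dpp4* (SE 0.130) and 0.19 for *Col15a1* (SE 0.392). *Ly6a* was the most abundant, at 612 ± 94.2 TPM in controls and 601.1 ± 114.1 TPM in mutants (SD, n = 4 each).

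The genes outside the 10 whose log2 CPM was most like *Adipoq* over the 8 kidneys, by Pearson's r and with no p, were *Aoc3*, the amine oxidase of fat cells and smooth muscle (r = 0.990), *Slc1a3* (0.988), *Jmjd7* (0.983), *Boc* (0.976) and *Orm1* (0.965). They were followed by *C3* (0.964), *Rbp4*, a retinol carrier secreted by fat (0.964), *Adrb3*, the adrenergic receptor of fat cells (0.959), *A530016L24Rik* (0.957) and *Htra3* (0.954). With the other members counted, 69 of the 14325 tested genes besides *Adipoq* had r over 0.9 with it. Both near-empty controls weigh heavily in these values: within the other 6 kidneys r was 0.945 for *Aoc3* but 0.292 for *C3*.

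Those most like *Ucp1* were *Krt19*, a keratin of lining epithelia (r = 0.998), *Cox8b* (0.991), *Thrsp* (0.990), *Ppp1r3b* (0.986), *Pparg*, the master factor of fat cells (0.982), and *Prkar2b* (0.982). *Sprr2a3* (0.975), *Upk1b* (0.972), *A530016L24Rik* (0.970) and *Upk2* (0.966) came next. The uroplakins *Upk1b* and *Upk2* and the keratin *Krt19* are not genes of fat but of urothelium and mesothelium, and within the 6 kidneys their r with *Ucp1* was still 0.961, 0.958 and 0.997. Which cells these reads came from was not tested. A kidney marker, *Aqp2*, also was highest among the controls in control 3 (403.1 CPM, others 163.2 to 262.3). It was lowest among the mutants in mutant 1 (277.2 CPM, others 393.4 to 563.2). None of the other kidney markers had both traits.

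The urothelium list holds *Upk1b* and *Upk2* and the mesothelium list holds *Krt19*, which were just named for their likeness to *Ucp1*. The sums of these lists are therefore a description and no separate support. The 6 urothelium genes, all detected, summed to 9.54, 26.1, 79.3 and 27.8 CPM in controls 1 to 4 and to 27.6, 49.4, 65.2 and 63.6 CPM in mutants 1 to 4. The 4 mesothelium genes summed to 4.97, 8.40, 27.3 and 11.8 CPM and to 11.4, 16.7, 25.1 and 24.3 CPM. Both sums were highest in control 3 and lowest in control 1, and mutant 1 was the lowest of the mutants in both, as for *Ucp1*. Single genes differed. In the mesothelium list *Krt19* and *Upk3b*, the most abundant, were highest in control 3 (15.2 and 10.7 CPM). *Msln* was highest in mutant 3 (1.94 CPM, 1.32 in control 3) and its lowest mutant was mutant 2. *Lrrn4* was highest in control 4 (0.700 CPM, 0.0881 in control 3). The part of these tissues in the *Ucp1* share was not tested.

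**Figure D4:**
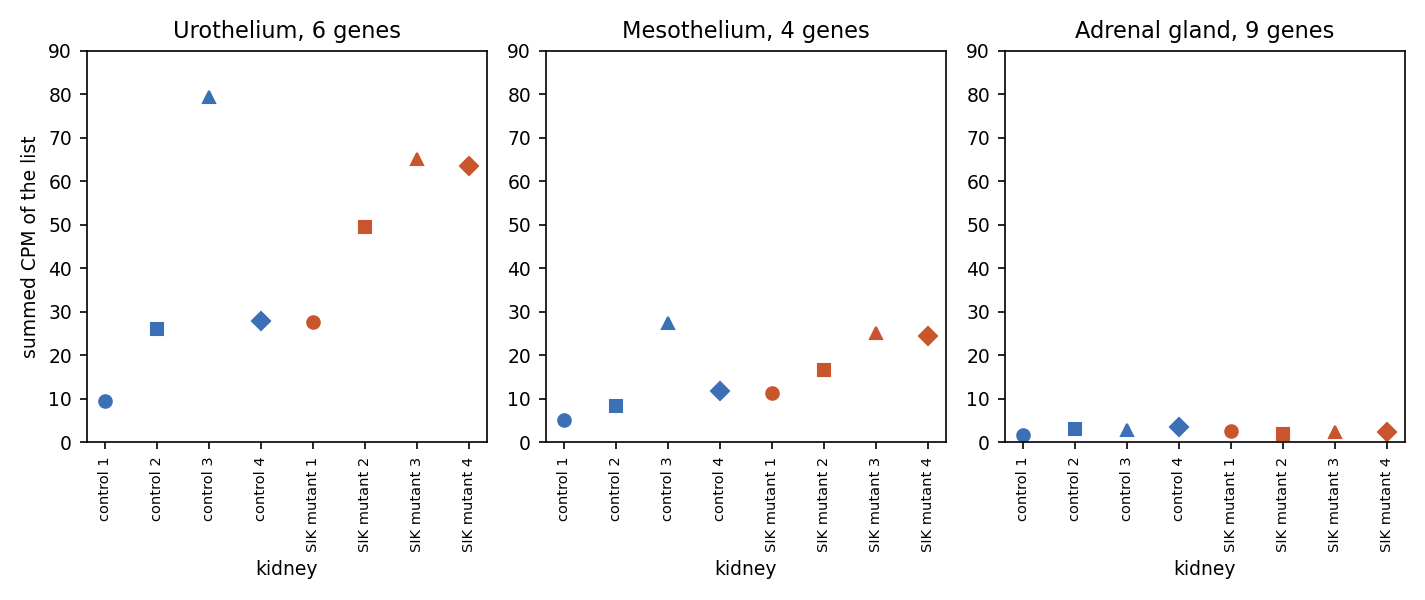
Summed CPM (y axis, from 0) of the marker lists of urothelium (6 genes), mesothelium (4 genes) and adrenal gland (9 genes) in each kidney (x axis), controls in blue and SIK mutants in orange. Urothelium and mesothelium are highest in control 3 (79.3 and 27.3 CPM) and lowest in control 1, while the adrenal list stays between 1.62 and 3.50 CPM.

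The adrenal gland, which lies in fat at the upper pole of the kidney, left almost no reads: its 9 markers summed to 1.62 to 3.50 CPM in controls and 1.87 to 2.65 CPM in mutants, and 3 of them had 0 counts in every kidney (*Cyp11b1*, *Cyp11b2* and *Pnmt*). Skeletal muscle, which shares *Cox8b* with brown fat, summed to 0.357 to 1.41 CPM over 7 genes. Lymphoid genes (6) summed to 3.39 to 7.84 CPM, nerve genes (4) to 9.24 to 20.2 CPM and smooth muscle genes (4) to 38.6 to 139.0 CPM. Each of these ranges in controls overlapped that in mutants.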

How the data were processed

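Total RNA of whole kidneys was extracted with Trizol, and libraries were sequenced on a BGISEQ500 instrument. Per the labels, the submitters' processing notes name FastQC, STAR 2.7.2b, RSEM 1.3.0, DESeq2 and the mm10 build. The authors deposited, per kidney and gene, RSEM expected counts and TPM, together with a posterior standard deviation of the count, another score, which was 0 for all 10 members. The expected counts were rounded here to whole numbers. Of 55401 genes, 55141 had a GENCODE M21 symbol. Genes passing edgeR's filterByExpr were fitted with edgeR 4.0.16 (R 4.3.3; TMM factors, glmQLFit and glmQLFTest, mutants against controls, no covariates), with Benjamini-Hochberg adjustment at 0.05. Correlations used log2 CPM with a prior count of 2. Alternatives used DESeq2 1.42.0, limma 3.58.1 and those listed in the closing section. The fit was tested on simulated data. The members, lists and tests were chosen with earlier results of these data known. Named were the members, the 4 tested genes of largest change and the 3 of highest TPM in each fat list, and the 10 genes most like *Adipoq* and *Ucp1*. RefSeq promoters were matched for 7 of 10 members. No replicate pair agreed within counting noise (chi-square per degree of freedom 9.44 to 53.8 over 12 pairs). Pairs of control 1 or 2 with control 3 or 4 gave 38.3 to 53.8, and all other pairs 9.44 to 15.4. P-values measure the spread between these kidneys.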

Additional observations from a re-analysis of the deposited data

Results flagged for a closer look

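Control 3 stood apart from the other controls for 6 of the 10 transcripts, since its distance from the next kidney, as a fraction of the whole spread of the 4 controls, passed Dixon's 95% limit. The values in control 3 were 13.7 CPM for *Plin1* (others 0 to 1.14), 15.3 for *Cidec* (0 to 1.93), 0.881 for *Lep* (0 in the others), 85.2 for *Ucp1* (0 to 5.17), 23.2 for *Cidea* (0 to 1.14) and 0.793 for *Elovl3* (0 in the others). All 3 brown transcripts are among them. The 6 values come from a single library and move together, so they are a single observation. Chance alone flags about 1 in 20 groups, and that share sets no expectation for transcripts that move together and were chosen with these values known.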

How the results depend on the processing

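The count of genes with an adjusted p under 0.05 was 0 with RLE and upper-quartile factors, with a mean of at least 50 counts and with unrounded counts. It was 9 with no filter, 15 with a covariate for Y-linked reads, 21 without the 2 kidneys that lack such reads, 71 with DESeq2, 2 with limma-voom, and 4 and 5 with limma on log2(TPM + 1) and log2(TPM + 0.1). It was 0 to 1 without each replicate in turn, and 1 without control 2, control 3 or mutant 1. Members were called on the 6 kidneys (5) and with the covariate (3, *Adipoq*, *Cfd* and *Retn*), and in none of the other 18 settings. TPM scaling moved the median of all genes to 0.11 with the smaller pseudocount. The median of the common fat genes was 0.10 with a mean of at least 50 counts, which drops the scarcest genes, 1.38 with the covariate and 1.47 on the 6 kidneys, and 0.39 to 0.77 without each replicate. The brown median was 0.41 with no filter and 0.46 with DESeq2 (−0.13 to 0.05 without each replicate), and the beige one −1.21 and −1.28 in the same settings, −0.16 with log2(TPM + 1) and −0.24 with log2(TPM + 0.1). The cause was not tested. The median Pearson r of the tested members with *Adipoq* was 0.931 to 0.978 without each kidney, but every such set keeps a control nearly without fat transcripts, so this says nothing of the other 6 kidneys. The brown to shared ratio kept its direction in all 3 alternatives, by CPM, without *Ucp1* and without *Cfd*. None of them left out *Fabp4*, which made up all of the shared TPM in control 1 and 33.55 of 36.7 in control 2. The direction without *Fabp4* was therefore not tested. With the replicate number as a block 0 genes were called, and same-numbered kidneys did not deviate together (r −0.288 to 0.0531), so the block pairs by number only. Depth limits *Lep* and *Elovl3*.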
